A study of Mus musculus with 2 samples.

Results

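Parietal epithelial cells line the inside of Bowman's capsule, the cup around each glomerulus. They were searched for here among droplet barcodes of dissociated mouse kidney cortex by a rule on UMIs, which are counts of single captured RNA molecules. A barcode was taken if it had at least 2 UMIs summed over Ncam1, Foxd1 and Wnt16, at least 1 UMI of Akap12 or Cdh6, and 0 UMIs each of Rgs5, Notch3, Havcr1 and Ptprc. In all, 109 of 7308 kept barcodes met it, namely 85 of the 4091 I-PpoI barcodes and 24 of the 3217 wild-type barcodes. The I-PpoI library came from kidney cortex of 12-week-old mice labelled as carrying I-PpoI in podocytes, and the wild-type library from kidney cortex of 12-week-old wild-type mice. The promoter that drives I-PpoI, the strain and the number of animals behind each library are not given in the sources used here. There was 1 library per group, so no p-value is given between the groups, and every interval below covers counting error only.

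The enzyme I-PpoI cuts both strands of DNA at a small set of recognition sites. Parietal cells are flat epithelial cells that form tight junctions and share a lineage with podocytes, the filtering cells of the glomerulus. In glomerular disease they are known to become activated, when they take up Cd44, enlarge, lay down matrix and can move onto the capillary tuft. Ncam1 is a neural cell adhesion molecule, Foxd1 a forkhead transcription factor of the kidney stroma that is also made in podocyte precursors, Wnt16 a Wnt ligand, Akap12 a scaffold protein for protein kinase A, and Cdh6 a cadherin of the developing nephron. The 4 genes that had to be at 0 UMIs mark pericytes and mural cells (Rgs5 and Notch3), injured proximal tubule (Havcr1) and leukocytes (Ptprc).

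The kept barcodes had a median of 6656 UMIs in the I-PpoI library and 3483 UMIs in the wild-type library. The barcodes of the rule had a median of 15284 UMIs in I-PpoI and 11097.5 UMIs in wild-type kidney cortex, and summed to 1664205 UMIs in I-PpoI and 491789 UMIs in wild-type kidney cortex. Barcodes with a UMI of Ptprc made up 47.8% of the kept barcodes of the I-PpoI library and 9.57% of those of the wild-type library. Over all barcodes, kept or not, the libraries had 6 barcode sequences in common, and none of these met the rule in both. In the barcodes of the rule, Nphs1, which encodes the podocyte slit protein nephrin, had 6 UMIs in the I-PpoI library and 2 UMIs in the wild-type library.

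The barcodes of the rule were 2.08% of the kept barcodes in the I-PpoI library (exact 95% interval 1.66 to 2.56) and 0.746% in the wild-type library (0.479 to 1.11), a ratio of 2.79 (1.75 to 4.58). The rule asks for UMIs, so deeper barcodes can meet it more easily. After every barcode was thinned to 1000 UMIs, with 341 shallower barcodes left out of the I-PpoI library and 512 out of the wild-type library, 6 of 3750 and 4 of 2705 barcodes met it, which is 0.16% in the I-PpoI library and 0.148% in the wild-type library. The ratio was then 1.08 with an interval of 0.257 to 5.21, so a difference in share was not detectable at that depth. Among the barcodes with no UMI of Ptprc, the ratio of the shares at full depth was 4.82 (3.04 to 7.94). More cells of a kind in the tissue and fewer of them lost in dissociation cannot be told apart in these shares.

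The name parietal epithelial cells held only in part. Of the 3 genes Ncam1, Foxd1 and Wnt16, Ncam1 alone carried most of the I-PpoI barcodes into the rule: 60 of 85 I-PpoI barcodes and 7 of 24 wild-type barcodes had UMIs of Ncam1 and none of Foxd1 or Wnt16. Foxd1 was found in 17 I-PpoI barcodes and 12 wild-type barcodes, Wnt16 in 18 and 14 barcodes of these libraries, and both genes together in 10 I-PpoI barcodes and 9 wild-type barcodes. In a class of cells that should lack these genes, the Ptprc barcodes, Foxd1 had a UMI in 0.205% of 1955 I-PpoI barcodes and in 0 of 308 wild-type barcodes (exact interval up to 1.19%). Ncam1 had a UMI in 36 (1.84%) of these 1955 I-PpoI barcodes and in 1 (0.325%) of the 308 wild-type ones. The medians of the Ptprc barcodes were 7750 UMIs in the I-PpoI library and 4073 UMIs in the wild-type library. Thinned to 3000 UMIs per barcode, Foxd1 was found in 11.9% of 84 I-PpoI barcodes of the rule and 30.4% of 23 wild-type barcodes, against 17 of 85 and 12 of 24 barcodes of these libraries before thinning, with 1 barcode left out of each. These are values the rule itself used and are given as a description.

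Other genes sorted the barcodes into 4 groups. This sorting was made after the values were seen, so its groups carry no test. Collagen barcodes had at least 20 UMIs per 10000 of a list of 8 fibroblast genes (Col1a1, Col1a2, Col3a1, Dcn, Lum, Pdgfra, Dpt and Postn), Epcam barcodes had fewer and at least 5 UMIs of Epcam, an epithelial adhesion molecule, and Foxd1/Wnt16 barcodes had neither and at least 1 UMI of Foxd1 or Wnt16. The remainder had none of these. In the I-PpoI library the groups held 26 collagen, 23 Epcam, 20 Foxd1/Wnt16 and 16 remaining barcodes, and in the wild-type library 1, 8, 13 and 2 barcodes in the same order. Foxd1/Wnt16 barcodes were thus 23.5% of the I-PpoI barcodes of the rule and 54.2% of the wild-type ones. Within a factor of 2 of the collagen limit lay 4 I-PpoI barcodes and 0 wild-type barcodes, and 6 and 2 barcodes of these libraries had 3 to 8 Epcam UMIs.

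**Figure D1:**
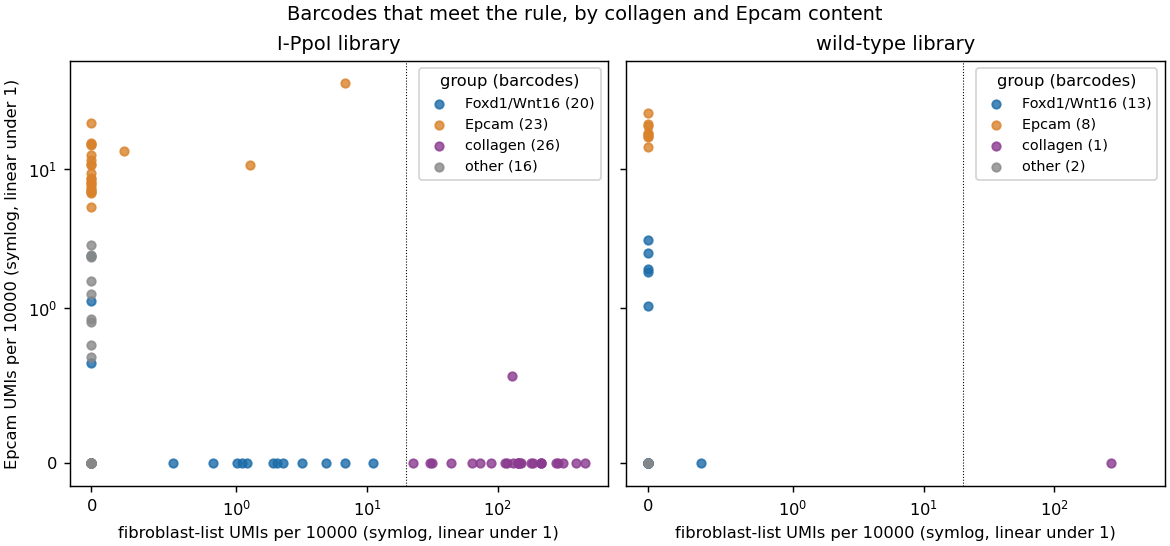
Each point is a barcode that met the rule, with its UMIs per 10000 of 8 fibroblast genes on the x axis and of Epcam on the y axis, both linear under 1 and logarithmic above, for the I-PpoI library (left, 85 barcodes) and the wild-type library (right, 24 barcodes). The dotted line marks 20 UMIs per 10000; 26 I-PpoI barcodes and 1 wild-type barcode lie to its right.

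Per kept barcode, collagen barcodes were 20.4 times as frequent in the I-PpoI library as in the wild-type library (3.36 to 838, from 26 and 1 barcodes), and the remaining barcodes 6.29 times (1.48 to 56.4, from 16 and 2 barcodes). For Epcam barcodes the ratio was 2.26, with an interval of 0.976 to 5.85 that holds 1. For Foxd1/Wnt16 barcodes it was 1.21 (0.573 to 2.65): 0.489% of the kept barcodes in the I-PpoI library and 0.404% in the wild-type library. For Foxd1/Wnt16 and Epcam barcodes no difference in the share of all kept barcodes was detectable with these numbers. Of all kept barcodes, 47.8% in the I-PpoI and 9.57% in the wild-type library had a UMI of Ptprc. Without these the ratio for the whole rule was 4.82, and the ratios of the groups were not computed. These ratios are at full depth, and differences between them were not tested.

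The leading genes differed between the groups. In I-PpoI collagen barcodes they were Col3a1, Col1a2, Col12a1 and Col1a1, which encode fibrillar and associated collagens. The complement inhibitor gene Serping1 and the proteoglycan gene Dcn followed. Of these, Col3a1, Col1a2, Col1a1 and Dcn are in the list that defines the group and lead it by construction. Pax8, a transcription factor of nephron epithelia, had 0 UMIs in these 26 barcodes and Cldn1, the claudin of the parietal tight junction, had a UMI in 1 of them. The I-PpoI Epcam barcodes were led by Clu, Lcn2, Krt8 and Krt18, that is clusterin, the injury marker lipocalin 2 and a pair of simple-epithelium keratins, and Umod, uromodulin of the thick ascending limb, was found in 56.5% of them. The 8 wild-type Epcam barcodes were led by Apela, Cryab, Aqp1 and Bst1. Wt1, a transcription factor of podocytes and parietal cells, had 0 UMIs in the Epcam barcodes of both libraries, whereas it was found in 15 of 20 I-PpoI and 7 of 13 wild-type Foxd1/Wnt16 barcodes. The remaining I-PpoI barcodes were led by Gpc3, Cp, Cdh6 and C3, and Foxd1 and Wnt16 are at 0 there by construction. They also held proximal tubule genes: 10 of 10 listed were detected, with a UMI in 15 of these 16 barcodes. That list summed to 2301 CPM there, against 164.4 CPM in the Foxd1/Wnt16, 297.7 CPM in the Epcam and 2.61 CPM in the collagen barcodes of the I-PpoI library.

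Just outside the rule lay barcodes with a different mix. With 1 UMI of Ncam1, Foxd1 and Wnt16 in place of 2, there were 31 I-PpoI and 10 wild-type barcodes, and just inside, with exactly 2 UMIs, 22 and 2 barcodes in these libraries, of which 8 I-PpoI and 1 wild-type barcodes were collagen barcodes. Barcodes that met the conditions on the 5 marker genes but had a UMI of Rgs5 or Notch3 numbered 70 in the I-PpoI library and 3 in the wild-type library, with 39 and 1 collagen barcodes among them. With a UMI of Havcr1 there were 50 I-PpoI barcodes and 0 wild-type barcodes, and with one of Ptprc 14 and 0 barcodes in these libraries. These sets can share barcodes. Of the 50 I-PpoI barcodes with Havcr1, 16 were Epcam barcodes and 5 had Foxd1 or Wnt16.

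Some genes outside the rule were high in its barcodes in both libraries. Wt1 had 46.9 CPM (UMIs of the gene per 1000000 summed UMIs) in the I-PpoI barcodes of the rule and 46.8 CPM in the wild-type ones, against 2.14 CPM in the other I-PpoI barcodes and 0.55 CPM in the other wild-type barcodes. Ankrd1, which encodes a mechanosensitive nuclear repeat protein, had 183.9 CPM in I-PpoI barcodes of the rule and 239.9 CPM in wild-type ones, against 22.3 and 2.55 CPM in the rest of the same libraries. Stc2, for the secreted stanniocalcin 2, had 67.3 CPM in I-PpoI barcodes and 83.4 CPM in wild-type barcodes, against 2.37 and 0.851 CPM in the rest. Foxc1, a forkhead transcription factor, Tnc, the matrix protein tenascin C, Dag1, dystroglycan, and Tsc22d1 were also among the genes ranked highest in both libraries. Tagln, a gene that mural cells make, ranked above Wt1, Tnc, Dag1 and Tsc22d1. It had 2914 CPM in I-PpoI and 1126 CPM in wild-type barcodes of the rule, against 546.5 and 217.1 CPM in the rest. Igfbp2, Cryab, Gxylt2, Spns2, Scrn1 and Adamts5 ranked above Wt1 as well. The rule picked these barcodes by genes of the same cells, so this is a description.

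Over all barcodes of the rule, 9416 genes had at least 20 UMIs over both libraries. Of these, 1151 (12.2%) were 2-fold or more higher in the I-PpoI library and 1112 (11.8%) were 2-fold or more lower, with a median log2 ratio of -0.17. The 12 genes ranked highest in the I-PpoI barcodes, by the bound of the interval nearest to 1, mostly came from single groups. Fn1, which encodes the matrix protein fibronectin, led with 1282 UMIs in 59 of 85 I-PpoI barcodes and 1 UMI in 1 of 24 wild-type barcodes, a ratio of 379 (67.9 to 14975). It was spread over groups, with 477 UMIs in the I-PpoI collagen barcodes, 102 in the Epcam, 629 in the Foxd1/Wnt16 and 74 in the remaining barcodes. By contrast, 1067 of the 1133 UMIs of Timp1, a metalloproteinase inhibitor, 700 of the 737 UMIs of the chemokine gene Cxcl14, and 640 of the 649 UMIs of the serpin gene Serpine2 lay in the I-PpoI collagen barcodes. The same held for 1979 of 1988 UMIs of Col1a1 and 7566 of 7683 of Mgp, matrix Gla protein. Col1a1 is one of the genes that define collagen barcodes, so its place there is by construction.

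Lcn2 had 3422 of its 3440 I-PpoI UMIs in Epcam barcodes, and so had Wfdc2 with 2011 of 2097, the defensin gene Defb1 with 423 of 424, and Slc12a1, the salt transporter of the thick ascending limb, with 554 UMIs and 1 elsewhere. The metallothionein gene Mt2 was divided, with 775 of 1240 UMIs in collagen and 389 in Epcam barcodes. Of the 12 genes ranked lowest, Aqp1, the water channel of proximal tubule and thin limb, had 14 UMIs in the I-PpoI library and 1883 UMIs in the wild-type library, all 1883 in 6 of the 8 wild-type Epcam barcodes. Angpt2, an angiopoietin, had 281 of 283 wild-type UMIs in that group, and Apela, a peptide ligand, 892 of 923. Corin, a protease gene, had its 41 wild-type UMIs in 2 barcodes of that group. Also among those ranked lowest were Msmp, Slc1a2, Hnmt, Tbpl2, Wnt8b, Cfap52 and Slc39a8, from 0 to 15 UMIs in the I-PpoI library and 24 to 149 UMIs in the wild-type library. A comparison over all barcodes of the rule is therefore in large part one of unlike groups.

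The marker lists show the same. Over all barcodes of the rule, 7 of 8 measured fibroblast genes were 2-fold or more higher in the I-PpoI library and 0 lower (median log2 ratio 4.26, or 2.96 with genes at 0 in a library set to their bound), as were 7 of 9 mesangial, mural and renin genes (median 3.86, or 1.37 at the bounds) and 4 of 4 measured loop and distal genes (median 4.50, or 3.60 at the bounds). The summed fibroblast genes ranged from 0 to 463 UMIs per 10000 in I-PpoI barcodes (median 0) and from 0 to 274 in wild-type barcodes (median 0). Without the collagen barcodes 827 of 8697 genes (9.51%) were 2-fold or more higher and 984 (11.3%) lower. The Foxd1/Wnt16 barcodes are hence compared by themselves below.

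The 20 I-PpoI and 13 wild-type Foxd1/Wnt16 barcodes were defined by genes of the rule, and the 12 parietal markers outside the rule do not single them out by their sum. In the I-PpoI library that list had a median of 24.2 UMIs per 10000 in Foxd1/Wnt16 barcodes, 37.3 in Epcam and 53.5 in collagen barcodes, and in the wild-type library 29.9 in Foxd1/Wnt16 and 23.1 in Epcam barcodes. Different members carried these sums: the keratin gene Krt8 had 1501 CPM in I-PpoI Epcam barcodes, 117.0 CPM in I-PpoI Foxd1/Wnt16 barcodes and 0 UMIs in I-PpoI collagen barcodes. Cldn1 and Wt1 had their highest CPM of these 3 groups in Foxd1/Wnt16 barcodes in both libraries. In I-PpoI Foxd1/Wnt16 barcodes the list summed to 3450 CPM, and the mesangial, mural and renin list to 9182 CPM. The wild-type Foxd1/Wnt16 barcodes had 3127 CPM of the parietal list and 3783 CPM of the mesangial, mural and renin list.

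The Foxd1/Wnt16 barcodes summed to 358842 UMIs in the I-PpoI library and 167598 UMIs in the wild-type library, with medians of 11196.5 and 9748 UMIs per barcode. The deepest I-PpoI barcode gave 28.0% of its group's UMIs and the deepest wild-type barcode 32.8%. Of 4400 genes with at least 20 UMIs over both, 416 (9.45%) were 2-fold or more higher in the I-PpoI barcodes and 381 (8.66%) were 2-fold or more lower, with a median log2 ratio of -0.07. Fibroblast genes summed to between 0 and 11.05 UMIs per 10000 in the I-PpoI barcodes (median 0.922) and to between 0 and 0.364 in the wild-type barcodes (median 0), with Dcn, Lum, Dpt and Postn at 0 in the I-PpoI barcodes.

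Most parietal markers outside the rule were alike in summed level. Of 10 measured, 1 was 2-fold or more higher in I-PpoI barcodes and 0 were lower (median log2 ratio 0.17). Cldn1 (chromosome 16, 26356642 to 26371841, minus strand, GRCm38) had 79 UMIs or 220.2 CPM in I-PpoI barcodes and 39 UMIs or 232.7 CPM in wild-type barcodes, a ratio of 0.946 (0.637 to 1.43). Pax8 had 298.2 CPM in I-PpoI barcodes and 280.4 CPM in wild-type barcodes (ratio 1.06, 0.748 to 1.53). Wt1 had 167.2 CPM and 137.2 CPM in these libraries (ratio 1.22, 0.742 to 2.065). Cp, the ferroxidase ceruloplasmin, had 1488 CPM in I-PpoI barcodes and 1414 CPM in wild-type barcodes (ratio 1.05, 0.901 to 1.23). The intervals of these 4 ratios hold 1. For counting error only, they exclude a 2-fold difference of the sums, except that of Wt1, which reaches 2.065. The deepest I-PpoI barcode gave 39 of the 79 UMIs of Cldn1, and the deepest wild-type barcode 8 of 39. Cldn1 had a UMI in 15 of 20 I-PpoI and 13 of 13 wild-type barcodes, with medians of 1 and 2 UMIs. For Cp the deepest I-PpoI barcode was the highest of its group, at 30.1 UMIs per 10000. Near equal sums thus do not show equal levels per barcode. The one marker past 2-fold was Dkk3, for a secreted Wnt modulator, at 2.17 (1.33 to 3.72).

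Of the genes the rule used, Ncam1 had 576.9 CPM in I-PpoI Foxd1/Wnt16 barcodes and 1163 CPM in wild-type ones, and Cdh6 had 1781 CPM in I-PpoI barcodes and 244.6 CPM in wild-type ones. Cdh6 ranged from 0 to 48.6 UMIs per 10000 in I-PpoI barcodes (median 7.202) and from 0 to 4.10 in wild-type barcodes (median 1.83). Foxd1 had 217.4 CPM in I-PpoI barcodes and 286.4 CPM in wild-type barcodes, and Wnt16 had 234.1 CPM in I-PpoI barcodes and 173.0 CPM in wild-type barcodes. As the rule chose barcodes by these genes, the values are a description.

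Matrix genes were mixed between the libraries. Fn1 (chromosome 1, 71585520 to 71653200, minus strand, GRCm38) had 629 UMIs in 17 of 20 I-PpoI barcodes and 1 UMI in 1 of 13 wild-type barcodes, a ratio of 294 (52.5 to 11622). Per barcode Fn1 ranged from 0 to 49.98 UMIs per 10000 in the I-PpoI library (median 11.98) and from 0 to 0.182 in the wild-type library (median 0), so that 17 I-PpoI barcodes lay above every wild-type barcode and 3 I-PpoI barcodes were at 0. Fn1 was also higher in I-PpoI barcodes outside the rule, at 309.3 CPM in the rest of the I-PpoI library and 9.51 CPM in the rest of the wild-type library, and at 284.7 CPM in I-PpoI and 8.95 CPM in wild-type Ptprc barcodes. The part of RNA from other cells in its level was not tested.

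Type VI collagen genes were higher as well. Col6a1 had 100 UMIs in 14 I-PpoI barcodes and 1 UMI in 1 wild-type barcode (ratio 46.7, 8.19 to 1863), and Col6a2 had 53 UMIs in 13 I-PpoI barcodes and 0 UMIs in wild-type barcodes, at least 8.25-fold higher by a floor of 3 UMIs over the group. Of 17 measured basement membrane genes, 5 were 2-fold or more higher in I-PpoI barcodes and 3 lower (median 0.04). Col4a1, the main type IV collagen chain, had 1485 CPM in I-PpoI barcodes and 1444 CPM in wild-type barcodes (ratio 1.03, 0.882 to 1.202). Lower ones were Col18a1, whose product carries endostatin, at 317.7 CPM in I-PpoI and 1325 CPM in wild-type barcodes (ratio 0.24, 0.19 to 0.302), Npnt, nephronectin, at 0.337 (0.223 to 0.505), and Nid2, nidogen 2, at 0.0778 (0.0147 to 0.267). Col18a1 was found in all 13 wild-type barcodes, from 4.12 to 21.8 UMIs per 10000 (median 13.8), and in 15 of 20 I-PpoI barcodes, from 0 to 7.57 (median 2.36), so the ranges overlapped only in part.

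Among genes named for their rank or from the lists, 5 that encode parts of the cytoskeleton, chosen after their values were seen, had higher levels in I-PpoI barcodes. Vim, the intermediate filament vimentin, had 3525 CPM in I-PpoI barcodes and 889.0 CPM in wild-type barcodes (ratio 3.97, 3.34 to 4.73), with medians of 28.0 UMIs per 10000 in I-PpoI and 8.30 in wild-type barcodes. Acta2, smooth muscle actin, had 704 UMIs in 10 I-PpoI barcodes and 37 UMIs in 2 wild-type barcodes (ratio 8.89, 6.38 to 12.7). It was at 0 in the other 10 I-PpoI barcodes and reached 172.1 UMIs per 10000 in the highest. Tagln, transgelin, which binds actin, had 6847 CPM in I-PpoI barcodes and 3276 CPM in wild-type barcodes (ratio 2.09, 1.90 to 2.30), Tpm2, a tropomyosin, had 185 UMIs in I-PpoI and 7 UMIs in wild-type barcodes, and Des, desmin, 51 UMIs in 10 I-PpoI barcodes and 0 in wild-type barcodes, at least 7.94-fold higher. Anxa1, annexin A1, had 225 UMIs in 18 I-PpoI barcodes and 8 UMIs in 3 wild-type barcodes (ratio 13.1, 6.55 to 30.8).

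Mural cells make several of these genes. In I-PpoI Foxd1/Wnt16 barcodes 7 of 12 mesangial, mural and renin genes were detected, with Itga8, Ren1, Akr1b7, Myh11 and Gata3 at 0, and the list summed to between 0 and 663 UMIs per 10000 (median 19.8). In wild-type barcodes 5 of 12 were detected, and the sum lay between 0 and 104.6 (median 7.39). Of the 6 measured genes, 3 were 2-fold or more higher in I-PpoI barcodes and 1, Pdgfrb, lower (median 0.62). Tagln also had a UMI in 20.2% of the Ptprc barcodes of the I-PpoI library and in 0.649% of those of the wild-type library. The part of mural cells and of RNA from other cells in these differences was not tested.

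**Figure D2:**
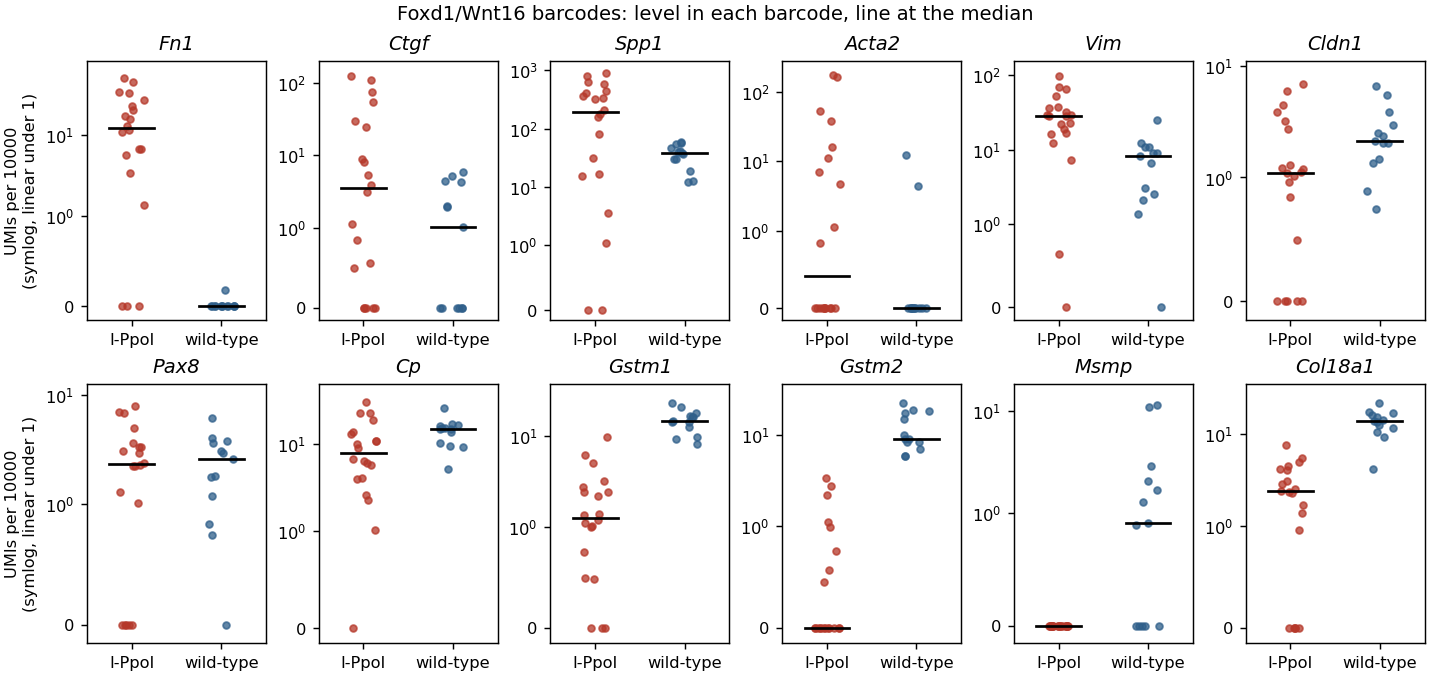
UMIs per 10000 of 12 genes in each Foxd1/Wnt16 barcode, with the y axis linear under 1 and logarithmic above, for 20 I-PpoI barcodes (left in each panel) and 13 wild-type barcodes (right), and a line at the median. Fn1 lies above the wild-type range in 17 I-PpoI barcodes, Acta2 is at 0 in 10 of them, and Msmp is at 0 in all 20.

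Of 12 measured genes of parietal activation in Foxd1/Wnt16 barcodes, 6 were 2-fold or more higher in the I-PpoI library, 2 lower and 4 between (median log2 ratio 1.19). Of 13 measured tubular injury and repair genes, 7 were higher, 1 lower and 5 between (median 1.18), against 9.45% higher and 8.66% lower of all genes. In both lists the members' ratios lay on both sides of 1. The lists share Cd44, Vim and Sox9. Cd44, the hyaluronan receptor by which activated parietal cells are known, had 53 UMIs in 12 of 20 I-PpoI barcodes and 4 UMIs in 2 of 13 wild-type barcodes (ratio 6.19, 2.28 to 23.5). Sox9, a transcription factor of epithelial repair, had 42 UMIs in 7 I-PpoI barcodes and 1 UMI in 1 wild-type barcode (ratio 19.6, 3.33 to 793), and was at 0 in the other 13 I-PpoI barcodes. Pdpn, podoplanin, had 275.9 CPM in I-PpoI barcodes and 95.5 CPM in wild-type barcodes (ratio 2.89, 1.69 to 5.25), and Cd9, a tetraspanin, had a ratio of 1.87 (1.25 to 2.87). The 2 activation genes that were lower were Met, the receptor of hepatocyte growth factor, at 0.288 (0.175 to 0.467), and Mif, a cytokine, at 0.427 (0.256 to 0.71).

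Spp1, which encodes the secreted matrix protein osteopontin, gave the most UMIs of any named gene. It had 12635 UMIs or 35210 CPM in I-PpoI barcodes and 700 UMIs or 4177 CPM in wild-type barcodes (ratio 8.43, 7.81 to 9.11). Per barcode Spp1 ranged from 0 to 893.1 UMIs per 10000 in I-PpoI (median 192.1) and from 11.9 to 58.5 in wild-type barcodes (median 38.0), so the I-PpoI barcodes lay on both sides of the wild-type range. Spp1 had a UMI in 62.5% of I-PpoI and 14.6% of wild-type Ptprc barcodes, and after thinning to 3000 UMIs in 40.2% and 10.3% of them in these libraries. Its level in Ptprc barcodes was 2937 CPM in the I-PpoI library and 568.3 CPM in the wild-type library. The part of RNA from other cells in the difference was not tested.

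S100a6, a calcium-binding protein gene among the leading genes of these I-PpoI barcodes, had 9572 CPM in I-PpoI barcodes and 1462 CPM in wild-type barcodes (ratio 6.55, 5.75 to 7.49). Adgra1, an adhesion receptor gene, had 79 UMIs in 11 I-PpoI barcodes and 0 UMIs in wild-type barcodes, at least 12.3-fold higher. Cdkn1c, the cyclin-dependent kinase inhibitor p57 that podocytes make, had 212 UMIs in 3 I-PpoI barcodes and 0 UMIs in wild-type barcodes, with 210 of the 212 UMIs in 1 barcode. The podocyte list, of which Cdkn1c is a member, summed to between 0 and 123.9 UMIs per 10000 in I-PpoI barcodes (median 1.98) and to between 0 and 8.003 in wild-type barcodes (median 1.28). Of 4 measured podocyte genes 3 were 2-fold or more higher in I-PpoI barcodes. The part of podocytes in the difference was not tested. AC135964.2, for which no role is stated here, had 49 UMIs in 9 I-PpoI barcodes and 0 in wild-type barcodes.

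YAP and TAZ are co-activators that respond to cell shape and stretch and act through TEAD factors. Of 13 measured genes of the YAP list in Foxd1/Wnt16 barcodes, 2 were 2-fold or more higher in the I-PpoI library and 2 lower (median log2 ratio 0.06). Ctgf (also named Ccn2), a matricellular growth factor, was the highest, with 743 UMIs in 15 of 20 I-PpoI barcodes and 29 UMIs in 7 of 13 wild-type barcodes (ratio 12.0, 8.26 to 17.99). Per barcode Ctgf ranged from 0 to 126.4 UMIs per 10000 in the I-PpoI library (median 3.48) and from 0 to 5.93 in the wild-type library (median 1.03), so part of the I-PpoI barcodes lay far above the wild-type range and part within it. The I-PpoI barcodes highest in Ctgf, at 126.4, 111.5, 76.4 and 54.3 UMIs per 10000, had 0 UMIs of Pax8. In the same order they had 165.0, 172.1, 0 and 52.1 UMIs per 10000 of Acta2, and 3.61, 0, 0 and 445.8 of Spp1. Pax8 was found in 15 of 20 I-PpoI and 12 of 13 wild-type Foxd1/Wnt16 barcodes. The I-PpoI barcode at 76.4 UMIs per 10000 of Ctgf gave 159 of the 743 Ctgf UMIs. It is also the barcode in which the podocyte list reached 123.9 UMIs per 10000. It had 11 UMIs of Foxd1 and 3 of Wt1, and 0 of Ncam1, Wnt16 and Cdh6. Whether the barcodes highest in Ctgf are cells of the same kind as the others was not tested. With at least 1 UMI of Wnt16 required of each barcode, the log2 ratio of Ctgf was 2.88, in place of 3.56. Ankrd1 did not follow it, at 379.0 CPM in I-PpoI and 340.1 CPM in wild-type barcodes (ratio 1.11, 0.812 to 1.55), nor did Cyr61 (also named Ccn1), at 328.8 CPM in I-PpoI and 614.6 CPM in wild-type barcodes (ratio 0.535, 0.407 to 0.704). Amotl2, which restrains YAP, was at 0.285 (0.194 to 0.415).

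The promoters of Ankrd1, Cyr61 and Acta2 are shown because these genes of stretch and contraction led or differed in the Foxd1/Wnt16 barcodes in unlike ways. They are 300 bases each, from 250 before to 50 after the annotated start, from RefSeq on GRCm38.p6, all on the minus strand and read 5′ to 3′. The capitals mark GGAATG, the core of the element that TEAD factors bind, or its reverse complement CATTCC. Ankrd1 is at chr19:36119795-36120094, Cyr61 at chr3:145649936-145650235 and Acta2 at chr19:34255324-34255623.
Ankrd1: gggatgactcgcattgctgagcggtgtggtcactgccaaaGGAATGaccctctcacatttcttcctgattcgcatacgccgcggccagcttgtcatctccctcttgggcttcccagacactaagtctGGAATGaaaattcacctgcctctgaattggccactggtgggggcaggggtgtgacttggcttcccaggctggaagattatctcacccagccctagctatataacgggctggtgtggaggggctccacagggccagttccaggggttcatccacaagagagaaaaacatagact
Cyr61: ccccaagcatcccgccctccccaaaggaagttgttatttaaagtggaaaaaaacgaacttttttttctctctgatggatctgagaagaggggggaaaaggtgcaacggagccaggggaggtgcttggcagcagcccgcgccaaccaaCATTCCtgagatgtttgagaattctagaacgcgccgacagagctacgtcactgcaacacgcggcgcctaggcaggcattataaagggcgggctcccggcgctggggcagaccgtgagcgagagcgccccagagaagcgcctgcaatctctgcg
Acta2: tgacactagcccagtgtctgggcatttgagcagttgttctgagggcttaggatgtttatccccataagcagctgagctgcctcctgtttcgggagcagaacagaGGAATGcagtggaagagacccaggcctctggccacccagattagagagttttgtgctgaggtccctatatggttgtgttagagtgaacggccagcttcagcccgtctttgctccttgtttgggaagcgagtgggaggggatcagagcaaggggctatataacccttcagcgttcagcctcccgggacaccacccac
The motif stands at 2 places in the Ankrd1 promoter and at 1 each in those of Cyr61 and Acta2. Searched on both strands, it is in 3955 of 27025 promoters of this length (14.6%), and in 9 of the 11 promoters of the YAP list that could be matched. A match is only a run of letters. Of the 3 printed genes with it, Acta2 was higher in I-PpoI barcodes, Cyr61 lower and Ankrd1 near equal, as the values above show.

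Targets of p53, the factor that answers DNA damage, and genes of the early stress response follow. Of 10 measured p53 targets in Foxd1/Wnt16 barcodes, 9 had a higher level in the I-PpoI library, 3 of them 2-fold or more, and 0 were 2-fold or more lower (median log2 ratio 0.74). Of all 4400 measured genes 45.8% had a higher level in the I-PpoI library, 9.45% were 2-fold or more higher and 8.66% lower. Cdkn1a, the cell cycle inhibitor p21, had 121 UMIs in 9 of 20 I-PpoI barcodes and 4 UMIs in 1 of 13 wild-type barcodes (ratio 14.1, 5.38 to 52.7), and 74 of the 121 UMIs came from 1 barcode. Phlda3, an inhibitor of Akt, had 86 UMIs in 15 I-PpoI barcodes and 10 UMIs in 6 wild-type barcodes (ratio 4.02, 2.08 to 8.67), and Gdf15, a stress cytokine, had a ratio of 2.71 (1.04 to 8.96). Mdm2, the ligase that restrains p53, was at 2.10 with an interval of 0.692 to 8.54. Of 24 listed double-strand break genes, 3 had enough UMIs, with 0 of them 2-fold higher and 1, Parp1, lower at 0.35 (0.13 to 0.906).

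Of 19 measured immediate early and heat shock genes, 6 were 2-fold or more higher in I-PpoI barcodes and 1 lower (median 0.34). Klf6, a zinc-finger transcription factor, had 869.5 CPM in I-PpoI and 208.8 CPM in wild-type barcodes (ratio 4.16, 2.93 to 6.09). Klf2 and Klf4, of the same family, had ratios of 6.54 (2.67 to 20.8) and 5.60 (2.27 to 17.9), and Hspb1, a small heat shock protein, of 2.78 (2.19 to 3.57). Fos, Jun and Egr1, which dissociation itself is known to raise, stood near equality, at 1.26 (1.09 to 1.46), 1.04 (0.875 to 1.23) and 0.965 (0.783 to 1.196). The members of this list thus differed among themselves. Of 19 nuclear genes of oxidative phosphorylation, 18 lay within 2-fold (median -0.051).

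**Figure D3:**
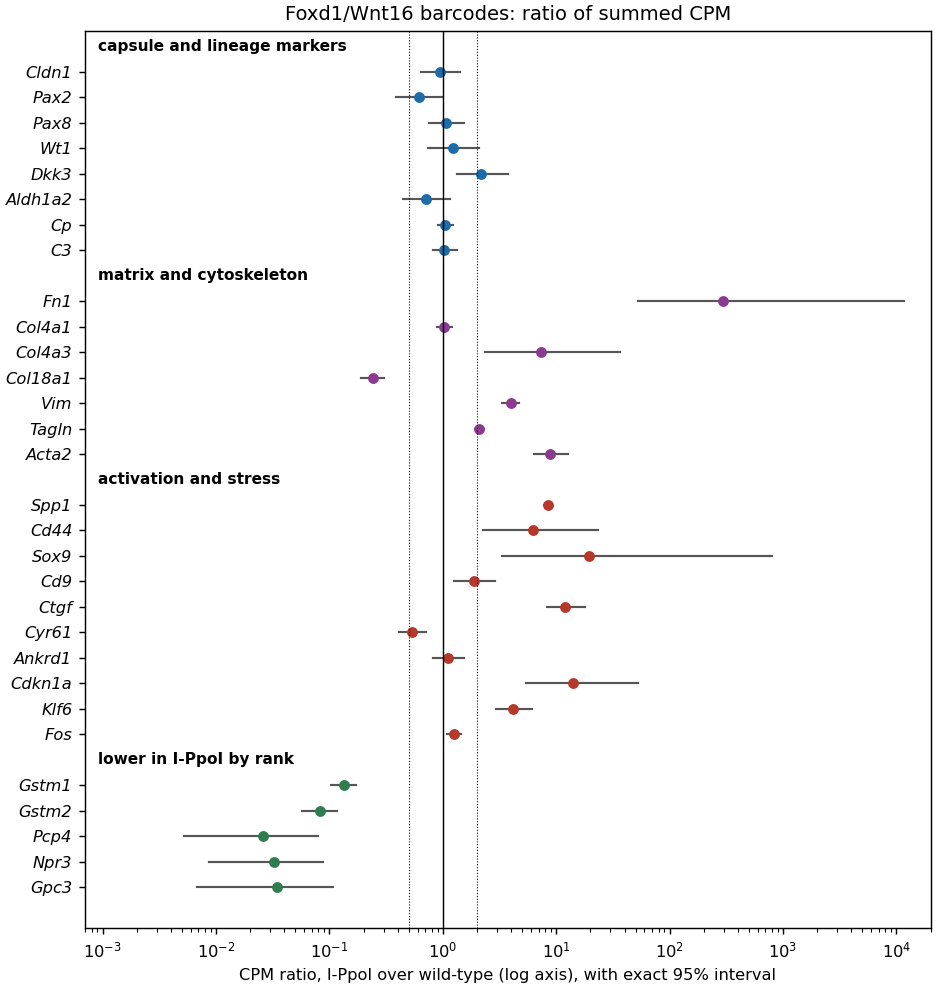
Ratio of CPM in I-PpoI over wild-type Foxd1/Wnt16 barcodes for 30 genes on a log axis, with its exact 95% counting interval, a solid line at 1 and dotted lines at 0.5 and 2. Cldn1, Pax8, Cp and Col4a1 lie near 1, while Fn1 stands at 294 and Gstm2 at 0.0827.

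The genes ranked lowest in I-PpoI Foxd1/Wnt16 barcodes were led by some with few UMIs. Msmp, a secreted protein related to microseminoprotein, had 0 UMIs in 20 I-PpoI barcodes and 81 UMIs in 8 of 13 wild-type barcodes, with 63 of them in 1 barcode. Cxcl10, an interferon-induced chemokine, had 1 UMI in I-PpoI barcodes and 66 UMIs in 3 wild-type barcodes, 62 of them in 1 barcode, so that single barcodes carried both. Pcp4, a calmodulin-binding peptide, had 3 UMIs in 2 I-PpoI barcodes and 54 UMIs in 9 wild-type barcodes. Npr3, the clearance receptor of natriuretic peptides, had 4 UMIs in 4 I-PpoI barcodes and 57 UMIs in 11 of 13 wild-type barcodes (ratio 0.0328, 0.00864 to 0.0886). Gpc3, a glypican, had 3 UMIs in I-PpoI and 41 UMIs in 9 wild-type barcodes, although it led the remaining I-PpoI barcodes. Apela, Edn3, Itgb6, Cxcl12 and Wfdc16 had 0 to 2 UMIs in the I-PpoI barcodes and 20 to 30 UMIs in the wild-type barcodes.

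A pair of glutathione transferase genes was lower across nearly all I-PpoI barcodes. Gstm1 (chromosome 3, 108012255 to 108017973, minus strand, GRCm38) had 77 UMIs in 17 of 20 I-PpoI barcodes and 269 UMIs in 13 of 13 wild-type barcodes (ratio 0.134, 0.102 to 0.173). Per barcode Gstm1 ranged from 0 to 9.67 UMIs per 10000 in the I-PpoI library (median 1.27) and from 8.20 to 23.3 in the wild-type library (median 14.6). Gstm2, its neighbour at 107981702 to 107986453 on the same strand, had 40 UMIs in 8 I-PpoI barcodes and 226 UMIs in 13 wild-type barcodes (ratio 0.0827, 0.0575 to 0.116). For Gstm2 the highest I-PpoI barcode had 3.36 UMIs per 10000 and the lowest wild-type barcode 5.91, so the groups did not overlap, while for Gstm1 they did. The genes are close paralogs, and how the authors' counting split reads between them is not given in the sources used here. Gstm1 was at 95.8 CPM in the rest of the I-PpoI library and 215.0 CPM in the rest of the wild-type library.

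Signalling genes differed in small numbers. Of 14 measured genes of TGF-beta, BMP and PDGF signalling, 1 was 2-fold or more higher in I-PpoI barcodes and 5 were lower (median -0.30). Among the lower ones were Id1, Id2 and Id3, inhibitors of differentiation that BMP signals induce, at 0.0934 (0.0318 to 0.228), 0.308 (0.195 to 0.482) and 0.462 (0.338 to 0.63). Of 7 measured Wnt pathway genes outside the rule, 2 were higher and 2 lower (median -0.81): Wnt4, a ligand of nephron formation, had 29 UMIs in 5 I-PpoI barcodes and 2 UMIs in 1 wild-type barcode, and Fzd4, a receptor, was at 0.293 (0.182 to 0.465). Of 3 measured retinoic acid genes, 2 were 2-fold or more higher and 1 lower (median 1.54): Rdh10, for the first oxidation step of retinol, was higher at 6.54 (2.09 to 33.0), and Dhrs3, which turns retinal back to retinol, was lower at 0.17 (0.0654 to 0.396). Fgfr1, a growth factor receptor, had 51 UMIs in 14 I-PpoI barcodes and 1 UMI in 1 wild-type barcode (ratio 23.8, 4.09 to 959).

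Of 11 measured junction and polarity genes, 1 was higher and 3 lower (median -0.37). Tjp1, which encodes ZO-1 of the tight junction, was at 0.396 (0.252 to 0.62), Cdh16, a cadherin of kidney epithelia, at 0.313 (0.225 to 0.433) and Cldn2, a cation-selective claudin, at 0.447 (0.289 to 0.691). Cldn1 was near equal in its sum, with the limits given above. Of 11 measured chemokine and cytokine genes, 2 were higher and 4 lower (median -0.43). Ccl2, which draws monocytes, had 19 UMIs in 4 I-PpoI barcodes and 35 UMIs in 2 wild-type barcodes. Of 6 measured complement and acute phase genes, 0 were higher and 1 lower (median 0.04), and C3 had 610.3 CPM in I-PpoI and 590.7 CPM in wild-type barcodes. Proximal tubule genes were measured for 3 of 10, with Lrp2 and Kap lower in I-PpoI barcodes: Kap, an androgen-regulated tubule transcript, had 0 UMIs in I-PpoI barcodes and 22 UMIs in 8 wild-type barcodes. The list summed to between 0 and 25.8 UMIs per 10000 in I-PpoI barcodes (median 0) and to between 0.745 and 12.7 in wild-type barcodes (median 5.15), and its part in the other differences was not tested. Endothelial and loop markers had too few UMIs to be measured in these barcodes.

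**Figure D4:**
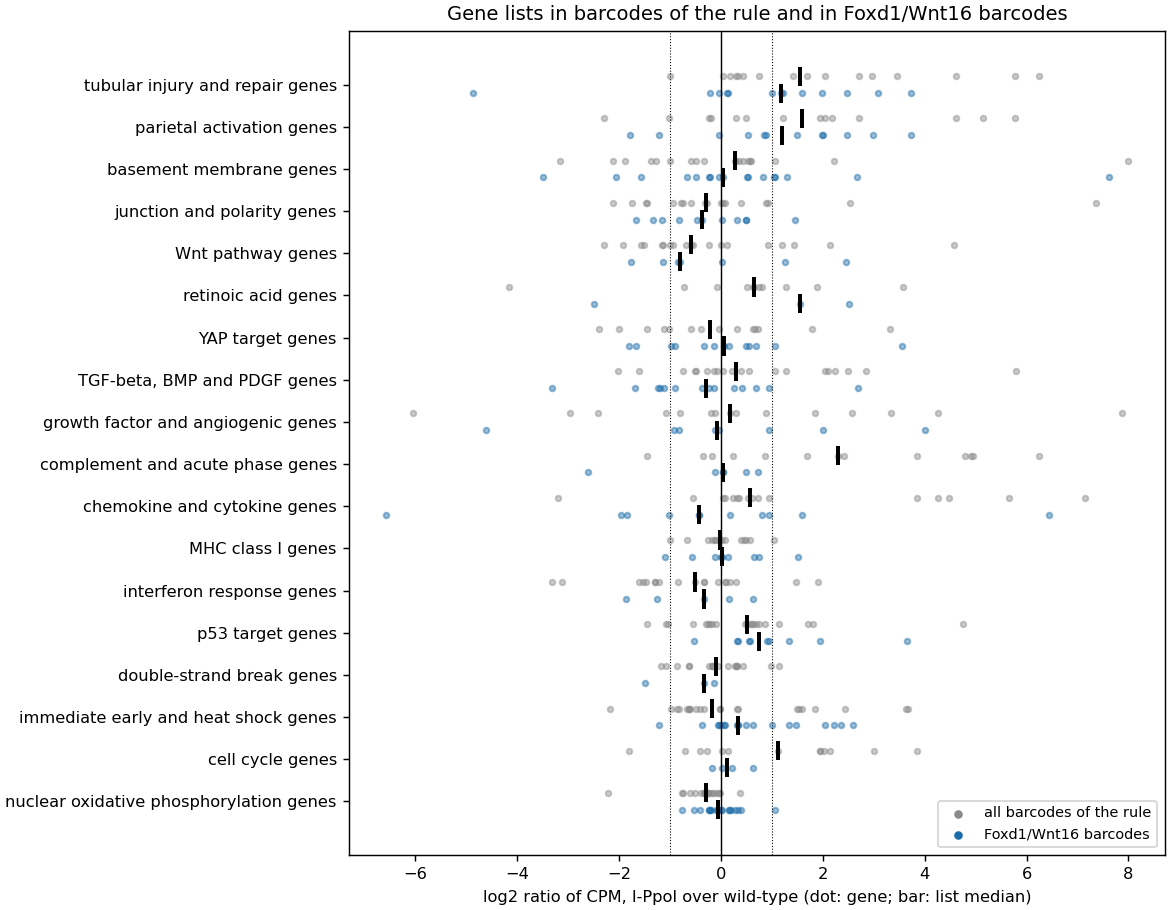
Log2 ratio of CPM, I-PpoI over wild-type, for each measured gene of 18 lists (dots) with the list's median (black bar), over all barcodes of the rule (grey) and over Foxd1/Wnt16 barcodes (blue), and dotted lines at 2-fold. The complement and acute phase list has a median of 2.29 over all barcodes of the rule and 0.04 over Foxd1/Wnt16 barcodes, and the chemokine list 0.57 and -0.43.

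Lists differed with the barcodes that were summed. Over all barcodes of the rule the complement and acute phase list had 8 of 13 measured genes 2-fold or more higher in the I-PpoI library and 1 lower (median 2.29, or 1.69 at the bounds). Cell cycle genes had 7 of 13 higher and 1 lower over all barcodes of the rule (median 1.12), and 0 of 4 either way in Foxd1/Wnt16 barcodes (median 0.11). Interferon response genes had 2 of 19 higher and 8 lower over all (median -0.50), and 0 of 5 higher and 2 lower in Foxd1/Wnt16 barcodes (median -0.34). MHC class II genes had 4 of 5 higher over all (median 3.00), 4 of 4 in Epcam barcodes (median 3.26) and 1 of 2 in Foxd1/Wnt16 barcodes. Leukocytes make these genes, and the part of RNA from other cells in their levels was not tested. Injury genes kept their side, with 9 of 16 higher and 1 lower over all (median 1.55), as did activation genes with 8 of 14 higher and 2 lower (median 1.58).

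The Epcam barcodes, 23 in the I-PpoI and 8 in the wild-type library, held other genes in each. Umod had 1724 UMIs in 13 I-PpoI barcodes and 27 UMIs in 5 wild-type barcodes (ratio 30.3, 20.7 to 46.1), and Krt19, a keratin of simple epithelia, had 276 UMIs in 18 I-PpoI barcodes and 1 UMI in 1 wild-type barcode. Cryab, the chaperone alpha-B crystallin, had 991.2 CPM in I-PpoI and 9165 CPM in wild-type barcodes (ratio 0.108, 0.0991 to 0.118). Pax2 and Pax8 were found in 22 and 21 of the I-PpoI barcodes and in all 8 wild-type barcodes. These barcodes had medians of 23891 UMIs in the I-PpoI library and 25590.5 UMIs in the wild-type library, more than any other group of the rule in its library. Wt1 was at 0 in both libraries, while Cldn1 was found in 13 of 23 I-PpoI barcodes and 0 of 8 wild-type barcodes, and Wnt16 in 1 I-PpoI barcode and 3 wild-type barcodes.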

How the data were processed

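Kidney cortex was dissociated and measured with a 3' droplet kit, with 1 I-PpoI and 1 wild-type library. The authors deposited raw UMI counts for each gene in each barcode, made with Cell Ranger on mm10, per the labels. The labels' protocols name Cell Ranger 3.1, and per the file headers it was 6.0.2, which is not settled here. Any later step in Seurat does not show in the deposited counts. Coordinates came from GENCODE on GRCm38.

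Barcodes were kept with at least 200 genes and at most 50% mitochondrial UMIs. UMIs of the barcodes that met the rule were summed per library and divided by their total (CPM). Ratios have exact conditional binomial 95% intervals, sums exact Poisson and shares Clopper-Pearson ones. Log2 ratios have 0.5 UMI added to each sum. A gene was measured with at least 20 UMIs over both libraries, and 2-fold or more was the call; genes of the rule and mitochondrial genes were not called. The members and all 27 gene lists were chosen with earlier results of these data known, and the 4 groups after the values were seen. Named genes were the 12 highest and 12 lowest by the interval bound nearest to 1, without rule, mitochondrial, ribosomal protein, haemoglobin and unnamed genes and those higher in the rest of both libraries; the same rule was applied to Foxd1/Wnt16 barcodes. Other genes, from the lists or leading genes, were chosen after their values were seen. Some genes that the rule or lists name are not reported here.

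Scrublet in scanpy 1.11.5 marked 30 I-PpoI barcodes (0.733%) and 5 wild-type barcodes (0.155%), so doublets were kept and the top 4% of scores left out as an alternative. RNA from other cells was not removed. The intervals were tested on counts simulated with Poisson error only, with no spread between barcodes. In these, the intervals of 96.6% of unchanged genes held 1 for all barcodes of the rule (9436 genes). For Foxd1/Wnt16 barcodes (4418 genes) it was 96.4%. Of genes changed 2-fold, 72% and 69% of intervals lay above 1 in these comparisons. Poisson error is what the intervals assume, so how they hold under the spread between real barcodes was not tested. Python 3.11.15, numpy 2.4.6, scipy 1.17.1 and pandas 2.3.3 were used.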

Additional observations from a re-analysis of the deposited data

How the results depend on the processing

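The ratio of shares, 2.79, was 4.82 among barcodes without Ptprc, 1.08 after thinning to 1000 UMIs, and 1.21 for Foxd1/Wnt16 barcodes alone. The value of 1.21 is for shares of all kept barcodes, with Ptprc barcodes among them. The settings that compare Foxd1/Wnt16 barcodes, leave out collagen barcodes or leave out the deepest barcode were chosen after seeing the data. With at least 5 UMIs in place of 20, 2134 genes were 2-fold or more higher and 1784 lower, and over Foxd1/Wnt16 barcodes 416 and 381. Fewer genes were measured there. Of the list medians over all barcodes of the rule, that of chemokine and cytokine genes was 0.57 and changed sign to -0.43 over Foxd1/Wnt16 barcodes. Over the same barcodes the medians were 0.62 for mesangial, mural and renin genes (3.86 over all), -2.25 for proximal tubule genes (1.51 over all), -0.30 for TGF-beta, BMP and PDGF genes (0.30 over all) and -0.051 for nuclear oxidative phosphorylation genes (-0.29 over all), so proximal tubule and TGF-beta medians also changed sign. So did those of immediate early and heat shock genes (0.34, -0.18 over all), YAP targets (0.06, -0.21), growth factor genes (-0.08, 0.17) and MHC class I genes (0.021, -0.014). The oxidative phosphorylation median over all barcodes of the rule was -0.15 without collagen barcodes and -0.043 without the Havcr1 condition. With at least 3 UMIs of Ncam1, Foxd1 and Wnt16 the fibroblast median was 6.54, in place of 4.26, and the proximal tubule median -0.85, and with 5 UMIs per gene the loop and distal median was 2.32, in place of 4.50. For these medians the cause was not tested. With the top 4% of Scrublet scores left out (5 I-PpoI barcodes of the rule, 3 of them Foxd1/Wnt16 barcodes, and 0 wild-type ones), the oxidative phosphorylation median over Foxd1/Wnt16 barcodes was 0.064, in place of -0.051. The other list medians that this setting gave kept their sign; it gave none for immune markers over all barcodes or for double-strand break genes over Foxd1/Wnt16 barcodes. No paired analysis was possible because each group has 1 library. With 20 and 13 Foxd1/Wnt16 barcodes, genes under 20 UMIs could not be compared.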

Other observations

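Csf1r, the receptor of macrophage colony-stimulating factor and an immune marker, had 26 UMIs in 11 of 13 wild-type Foxd1/Wnt16 barcodes, against 5 UMIs in 3 of 20 I-PpoI ones. The other 11 genes of the immune list, among them Tyrobp, Lyz2, C1qa, C1qb and C1qc, were at 0 in all 24 wild-type barcodes of the rule. Csf1r was at 155.1 CPM in the wild-type Foxd1/Wnt16 barcodes and at 285.4 CPM in the Ptprc barcodes of the same library. It was noticed after the values were seen.

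A single I-PpoI Foxd1/Wnt16 barcode held 210 of the 212 UMIs of Cdkn1c, and the podocyte list reached 123.9 UMIs per 10000 in it, against a median of 1.98 in its group. Cdkn1c is a member of that list, so the list value includes these 210 UMIs and is not a separate observation.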
